A study of Homo sapiens with 18 samples.

Results

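The transcriptional response to the PARP inhibitor (PARPi) olaparib at 24 h was compared between HCC1937-EV and HCC1937-OE-BRCA1 cells, gene by gene, as the change from 0 h to 24 h in HCC1937-OE-BRCA1 minus the same change in HCC1937-EV. A positive difference therefore means a more positive change in HCC1937-OE-BRCA1. Members were the genes with a mean of at least 1 CPM, read counts scaled to library size, over the 0 h and 24 h libraries of each line. These were 12332 of the 18335 genes tested and of 35044 genes listed. Genes that moved in opposite directions in the 2 lines were followed in most detail. The smaller of the 2 line means was 1.001 CPM for IQANK1 and 1.002 CPM for C3orf33 and H2BC4, the genes just inside this limit, and 0.998 CPM for LINC00482 and 0.999 CPM for LETM2 and VPS13B-DT just outside it.

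HCC1937 is an established cell line of triple-negative breast cancer that carries mutated BRCA1. HCC1937-EV holds an empty vector, and HCC1937-OE-BRCA1 is described as overexpressing wild-type BRCA1. Both were sequenced without treatment (0 h) and after olaparib at 10 µmol/L for 12 h or 24 h, with 3 libraries per condition. No library at 12 h or 24 h was without olaparib. Effects of the drug and of time in culture therefore cannot be told apart, and the response to olaparib here means the change from 0 h. The comparison used 12 of the 18 libraries, and the sources do not say whether the 3 libraries of a condition came from separate cultures, so that p-values measure the spread between these libraries, which may be technical. The labels list olaparib for the 0 h libraries as well and give HCC1937-EV the genotype wild type, whereas the study describes 0 h as untreated and the line as BRCA1-mutated.

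PARP enzymes help repair breaks of single DNA strands, and BRCA1 acts in homologous recombination, which repairs breaks of both strands. Cells with foreign or misplaced nucleic acid in the cytoplasm can switch on interferon-stimulated genes through sensors, the kinase TBK1 and the transcription factor IRF3. A transcription factor complex that includes STAT2 and IRF9 then binds a short element in many of these promoters. Ribosomal protein and respiratory chain genes form large groups whose transcripts are abundant and mostly short.

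The markers of the lines were compared first, since the comparison rests on the labels. The 6 libraries labelled HCC1937-EV held 1 count of the epithelial marker EPCAM in all, and none of the epithelial splicing factor ESRP1, for which 3 counts would be 0.0303 CPM over the 6 libraries. They had VIM, an intermediate filament of mesenchymal cells, at 227 to 335 CPM and COL1A1 at 89.0 to 143.5 CPM. The libraries labelled HCC1937-OE-BRCA1 had EPCAM at 252 to 352 CPM, the basal keratin KRT5 at 1062 to 1694 CPM and VIM at 0.756 to 1.90 CPM. Other markers on the same lists did not follow this split. KRT8 (1774 to 2073 CPM), KRT18 (841 to 1068 CPM) and EGFR (147 to 202 CPM) were also high in HCC1937-EV, the mesenchymal marker CDH2 had no count there, and FN1 was at 0.590 to 1.73 CPM against 27.0 to 82.2 CPM in HCC1937-OE-BRCA1. The part of BRCA1 in any difference between the lines cannot be told apart from that of the other ways in which these lines differ.

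BRCA1 itself (ENSG00000012048.23) was at 126, 111 and 117 CPM at 0 h and at 90.9, 93.1 and 99.5 CPM at 24 h in HCC1937-EV. The libraries of HCC1937-OE-BRCA1 held 166, 122 and 127 CPM at 0 h and 155, 159 and 169 CPM at 24 h. The untreated libraries of the lines overlapped, so the labelled overexpression did not separate them. The 24 h libraries lay below the 0 h libraries in HCC1937-EV and overlapped them in HCC1937-OE-BRCA1. The log2 difference of the responses was 0.54 ± 0.16 (SE, edgeR, adjusted p = 0.023). This call was lost in 6 of 12 fits that left out 1 library, and the difference was 0.15 (adjusted p = 0.171) once a trend with GC content and length was removed.

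Total counts lay between 15708622 and 17571922 in the 12 libraries. Libraries differed in how levels followed the GC content of transcripts. For each library, the median deviation from the mean of its line was taken in 2 of 10 equal bins of genes, that with the highest GC content and that with the lowest, and the second was subtracted from the first. This contrast was −0.54, −0.17 and −0.33 (log2) at 0 h in HCC1937-EV against 0.28, 0.51 and 0.26 for the treated libraries. For HCC1937-OE-BRCA1 the contrast was −0.41, 0.46 and 0.57 without treatment and −0.10, −0.18 and −0.32 at 24 h. Replicate 1 of untreated HCC1937-OE-BRCA1 stood apart from the other 2 libraries of its condition, and results are given without it where that bears on them. The contrast moved with treatment in opposite directions in the 2 lines, and its part in the results was not tested beyond the correction given below.

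The responses of the 2 lines differed in a large share of genes. Over the genes tested, the difference was called for 1496 genes in the positive (8.16%) and 2058 in the negative direction (11.2%) at an adjusted p under 0.05, or 19.4% of 18335. Among the genes expressed in both lines, 1370 differences were positive and 1980 negative, which is 11.1% and 16.1% of 12332. Of these 3350 genes, 3198 (95.5%) had log2 fold changes of opposite sign in the 2 lines, against 55.4% of the 8982 genes without a call. A large difference between 2 effects favours opposite signs, so the first share is a description. The 3198 genes were made up of 1299 with a positive estimate in HCC1937-OE-BRCA1 and a negative one in HCC1937-EV, and 1899 with the reverse.

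Fewer genes were called in each line on its own. In HCC1937-EV 1469 of the 12332 genes rose (11.9%) and 867 fell (7.03%), and in HCC1937-OE-BRCA1 634 rose (5.14%) and 595 fell (4.82%). Over the 18335 genes tested these shares were 8.62% and 5.12% in the first line and 4.71% and 3.55% in the second. For 1129 genes (9.16% of 12332) the 0 h and 24 h libraries did not overlap in either line and moved in opposite directions. Called in both lines and for the difference, 61 genes (0.495%) rose in HCC1937-OE-BRCA1 and fell in HCC1937-EV, and 153 (1.24%) fell in HCC1937-OE-BRCA1 and rose in HCC1937-EV. Another 63 genes rose in both lines, 11 of them with a called difference, and 22 fell in both, 3 of them with a called difference. Counts of genes called in both lines in opposite directions depended strongly on single libraries. They were 350 and 817 without replicate 1 of untreated HCC1937-OE-BRCA1, and 13 and 28 without replicate 1 of untreated HCC1937-EV. Without any one of the 12 libraries, the number of positive differences over the genes tested ran from 782 to 2630 and that of negative ones from 1280 to 2872.

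**Figure D1:**
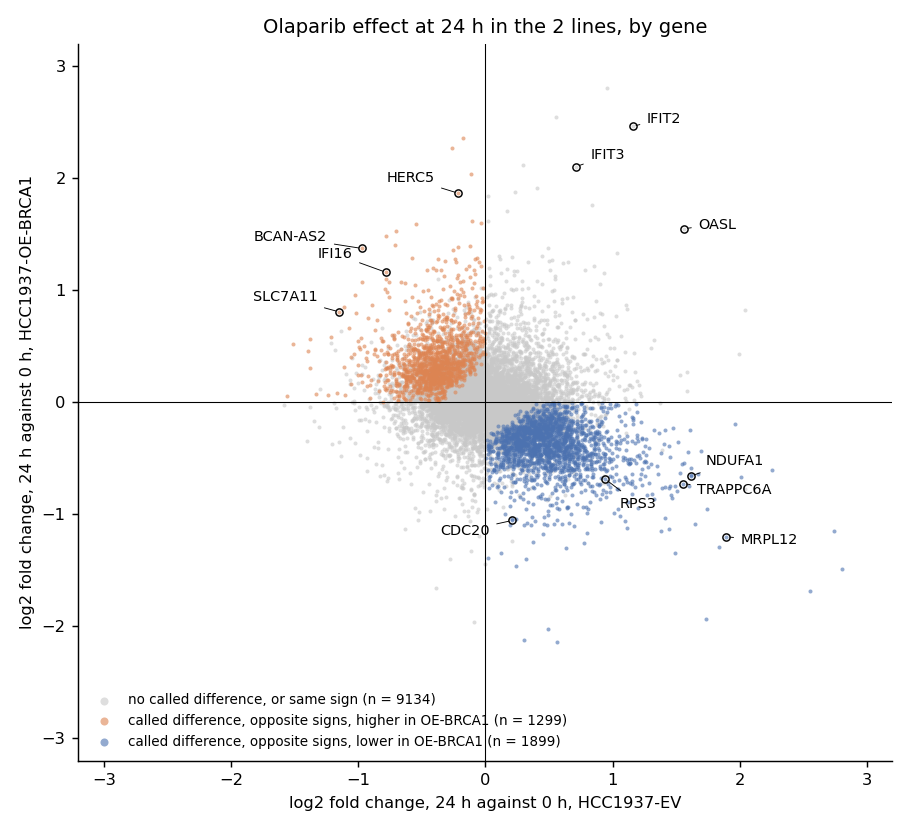
Each point is 1 of 12332 genes expressed in both lines. The horizontal axis gives its log2 fold change from 0 h to 24 h in HCC1937-EV and the vertical axis that in HCC1937-OE-BRCA1. Orange and blue mark the 1299 and 1899 genes with a called difference and opposite signs, which lie at the upper left and lower right, IFIT2, IFIT3 and OASL lie in the upper right, and 1 gene lies outside the axes.

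Among genes that rose in HCC1937-OE-BRCA1 and fell in HCC1937-EV, the 8 largest differences without overlap of the 0 h and 24 h libraries in either line were taken. IFI16 (ENSG00000163565.19, chromosome 1 of GRCh38, 158999968 to 159055155) encodes a sensor of DNA that is itself induced by interferon. It was at 30.9, 28.1 and 28.1 CPM at 0 h and 17.8, 17.6 and 15.3 CPM at 24 h in HCC1937-EV. The values in HCC1937-OE-BRCA1 were 113, 79.4 and 68.9 CPM and then 190, 196 and 198 CPM. Its level fell in each treated library of the first line and rose in each of the second. The log2 difference was 1.94 ± 0.21 (SE, edgeR, adjusted p = 2.2e-05), a 3.84-fold difference between the responses.

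SLC7A11 (chromosome 4, 138164097 to 138242349) encodes the cystine transporter that feeds glutathione synthesis. It was at 59.5, 54.7 and 60.8 CPM at 0 h and at 27.0, 25.2 and 26.7 CPM at 24 h in HCC1937-EV. Libraries of HCC1937-OE-BRCA1 had 39.6, 28.7 and 28.7 CPM and then 52.1, 57.3 and 60.5 CPM, so that the order of the lines turned over with treatment. The log2 fold changes were −1.15 and 0.81, and the difference was 1.96 ± 0.22 (adjusted p = 2.71e-05, edgeR). CCNE2, which encodes cyclin E2 and drives entry into S phase, was at 20.3 ± 2.27 CPM (SD, n = 3) and then 12.0 ± 0.649 CPM in HCC1937-EV. In HCC1937-OE-BRCA1 it went from 31.5 ± 3.94 CPM to 56.0 ± 0.954 CPM, and the log2 difference was 1.59 ± 0.23 (adjusted p = 0.000228, edgeR).

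ECM2, a gene of an extracellular matrix protein, had a difference of 1.88. The other 4 genes were long noncoding RNAs. BCAN-AS2 had the largest difference, 2.34 ± 0.31 (adjusted p = 0.000126, edgeR), at 6.46, 7.42 and 7.40 CPM and then 2.83, 3.71 and 4.31 CPM in HCC1937-EV, and at 2.77, 2.77 and 4.66 CPM and then 8.29, 7.61 and 10.5 CPM in HCC1937-OE-BRCA1. LUCAT1, a noncoding RNA known for induction by stress, had a difference of 2.12. CASC19 had a difference of 1.64 but was at 488 CPM in untreated HCC1937-EV against 2.05 CPM in untreated HCC1937-OE-BRCA1, and LINC02604 had a difference of 1.59. BCAN-AS2 lies across from BCAN, LUCAT1 from ADGRV1, CASC19 from PCAT1, SLC7A11 from SLC7A11-AS1, CCNE2 from INTS8 and ECM2 from CENPP. Whether the counting used strand is not given in the sources used here, so reads of such pairs cannot be told apart.

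The 8 largest differences in the other direction included genes of mitochondria and vesicle transport. TRAPPC6A (ENSG00000007255.10, chromosome 19, 45162928 to 45178237), a subunit of a complex that tethers vesicles in the secretory pathway, was at 3.23, 4.14 and 3.02 CPM and then 12.1, 9.49 and 8.93 CPM in HCC1937-EV. In the other line it was at 13.5, 22.5 and 21.9 CPM and then 10.6, 13.0 and 11.5 CPM, a narrow gap between its highest treated and its lowest untreated library. The log2 difference was −2.28 ± 0.32 (adjusted p = 0.00021, edgeR).

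NDUFAF8 (chromosome 17, 81239239 to 81241281), an assembly factor of respiratory complex I, was at 58.5, 57.6 and 60.1 CPM and then 123, 100 and 82.4 CPM in HCC1937-EV, and at 52.0, 74.0 and 55.9 CPM and then 31.5, 33.2 and 26.7 CPM in HCC1937-OE-BRCA1. The lines began at like levels and ended more than 3-fold apart in their means, 102 ± 20.6 against 30.5 ± 3.40 CPM (SD, n = 3). Its log2 difference was −1.79 ± 0.22 (adjusted p = 6.51e-05, edgeR). PDF, the mitochondrial peptide deformylase, also had a difference of −1.79, and SULT2B1, a sulfotransferase of sterols, one of −1.77. SULT2B1 was at 0.660 CPM in untreated and 1.58 CPM in treated HCC1937-EV, so it met the limit of 1 CPM in that line only through the group where it was high, and its difference is a description.

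The other 4 were noncoding genes. SNHG8, the host transcript of a small nucleolar RNA, had 15.1 to 20 CPM at 0 h and 28.0 to 44.3 CPM at 24 h in HCC1937-EV, and at 16.8, 33.9 and 24.4 CPM and then 14.6, 12.9 and 10.4 CPM in HCC1937-OE-BRCA1. Its difference was −2.0 ± 0.34 (adjusted p = 0.001, edgeR). NALT1, LINC01315 and RPL7AP6 had differences of −2.10, −1.96 and −1.81. RPL7AP6 is a processed pseudogene of the ribosomal protein gene RPL7A, and how reads of the 2 copies were assigned is not given in the sources used here. PDF overlaps COG8, TRAPPC6A MARK4 and RPL7AP6 SMOC1, so their reads are uncertain too. These 16 genes were each called in 12 of 12 fits that left out 1 library and with the correction for GC content and length. They were chosen by calls and lack of overlap in the same libraries, so this is a description and not further support.

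**Figure D2:**
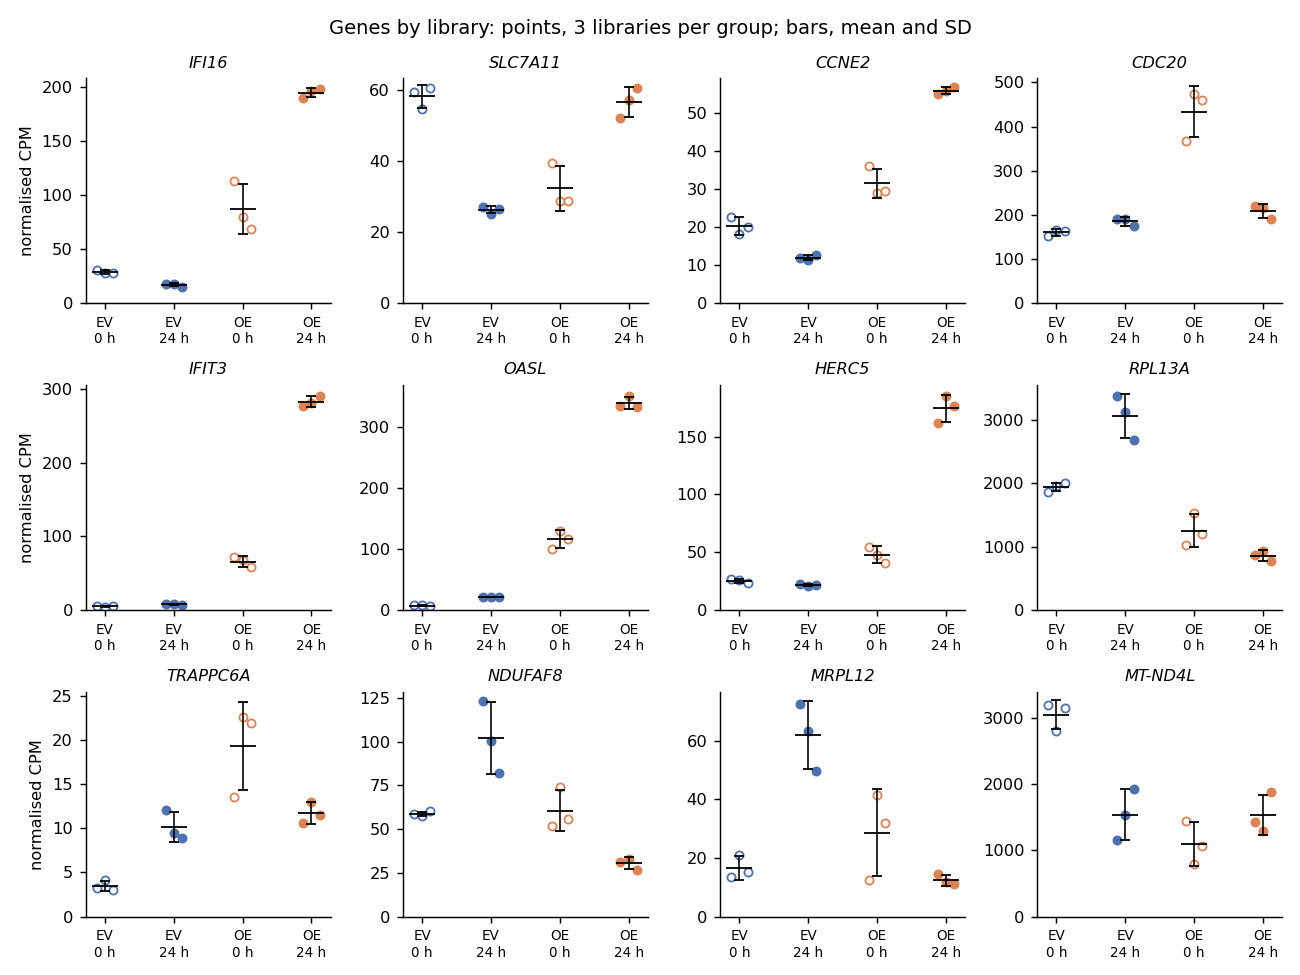
Normalised CPM of 12 genes in the 3 libraries of each line at 0 h (open points) and 24 h (filled points), with the mean and SD as bars and a linear axis from 0 in each panel. IFI16, SLC7A11 and CCNE2 fell in HCC1937-EV and rose in HCC1937-OE-BRCA1, NDUFAF8 and TRAPPC6A did the reverse, and OASL rose by 1.56 and 1.55 (log2).

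Of the 14 genes with calls in the same direction in both lines and a called difference, the antiviral genes IFIT3, IFIT2 and IFIT1 had the largest positive differences that met the rule. Their products bind viral RNA and block its translation, and LIPA overlaps them on the other strand. IFIT3 (ENSG00000119917.15) was at 5.40, 3.77 and 5.12 CPM and then 8.15, 8.14 and 7.13 CPM in HCC1937-EV, and at 72.1, 67.3 and 58.1 CPM and then 277, 281 and 291 CPM in HCC1937-OE-BRCA1. It rose in both lines, with a difference of 1.39 ± 0.19 (adjusted p = 0.00015, edgeR). The differences were 1.31 ± 0.18 for IFIT2 (adjusted p = 0.000136, edgeR) and 0.93 ± 0.20 for IFIT1 (adjusted p = 0.00444, edgeR).

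The smallest differences of this kind were those of PARP10 (−0.82), ALPP (−0.49) and CDKN1A (−0.47), which rose more in HCC1937-EV. CDKN1A, the p53-induced inhibitor of cyclin-dependent kinases, was at 9.44, 10.8 and 13.1 CPM and then 24.6, 21.8 and 23.6 CPM in HCC1937-EV, and at 66.1, 73.6 and 79.8 CPM and then 114, 113 and 105 CPM in HCC1937-OE-BRCA1. With the correction for GC content and length no call held for these 3 genes, whose differences were then −0.24, 0.07 and −0.08, with edgeR's adjusted p between 0.526 and 0.811. The calls of PARP10 and CDKN1A were also lost in 9 and 10 of 12 fits that left out 1 library.

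Of 12 interferon and antiviral genes on the qPCR primer list, 6 were expressed in both lines. That list was chosen for the same response, so its direction is not independent evidence. The difference was called higher for 5 of the 6 (83.3%, against 11.1% of the 12332 genes), with a list median of 1.31 against 0.03. OAS1 and OAS3 encode synthetases of the second messenger that activates RNase L. OAS1 was at 30.9, 29.7 and 30.5 CPM and then 28.1, 30.3 and 28.6 CPM in HCC1937-EV, where the conditions overlapped, and at 133, 143 and 132 CPM and then 328, 323 and 343 CPM in HCC1937-OE-BRCA1. Its difference was 1.35 ± 0.12 (adjusted p = 1.52e-06, edgeR), and that of OAS3 was 1.32 ± 0.17 (adjusted p = 0.000111, edgeR).

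OASL, a related gene without this enzyme activity, stood apart from the other 5. It was at 7.33, 7.60 and 6.66 CPM and then 21.5, 21.6 and 20.7 CPM in HCC1937-EV, and at 101, 130 and 117 CPM and then 335, 351 and 333 CPM in HCC1937-OE-BRCA1. The log2 fold changes were 1.56 and 1.55. The difference was −0.01 ± 0.14 and did not pass the test, and it stayed between −0.10 and 0.08 with each library left out in turn.

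A list of interferon-stimulated genes outside the primers had 67 members expressed in both lines. The difference was called positive for 43 of them (64.2%, against 11.1% of the genes expressed in both lines) and negative for 2, with a median of 0.72. In HCC1937-OE-BRCA1 53 of the 67 rose and none fell, against 5.14% and 4.82% of the genes expressed in both lines. The median change of the list there was 0.70 (log2). The other line had 10 that rose, 6 that fell and a median of −0.05. Those counts were near the 11.9% and 7.03% over the genes expressed in both lines. Without replicate 1 of untreated HCC1937-OE-BRCA1 the counts were 43 and 3, and with the correction for GC content and length 48 and 1. Of the immune cell markers, CD14 was the 1 of 5 above 1 CPM in each HCC1937-OE-BRCA1 library. The summed level of the 5 was 33.9 to 48.7 CPM at 0 h and 72.1 to 86.8 CPM at 24 h in that line, and CD68 and LYZ were at or under 0.368 CPM. In HCC1937-EV the sum was 1.30 to 2.65 CPM.

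Of this list, HERC5, STAT2 and WARS1 had the smallest adjusted p. HERC5 (ENSG00000138646.9), the ligase that attaches the ubiquitin-like protein ISG15, was at 26.5, 25.7 and 23.0 CPM and then 22.1, 20.9 and 21.9 CPM in HCC1937-EV. Levels in HCC1937-OE-BRCA1 were 54.9, 47.8 and 40.6 CPM and then 162, 185 and 176 CPM. The treated libraries of the first line lay just below the untreated ones, a change that did not pass the test, while those of the second lay more than 100 CPM above. The difference was 2.08 ± 0.16 (adjusted p = 5.06e-07, edgeR), the smallest adjusted p of the 84 genes named by rule.

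STAT2, a subunit of the factor that conveys interferon signals to promoters, had a difference of 1.17 ± 0.12 (adjusted p = 1.13e-05, edgeR). WARS1, the tryptophanyl-tRNA synthetase and a known target of interferon gamma, had one of 1.12 ± 0.11 (adjusted p = 1.13e-05, edgeR). Both had log2 fold changes in HCC1937-EV that did not pass the test, 0.11 and −0.17. The list's median per library, as the deviation from the mean of the line, was −0.33, −0.38 and −0.42 in untreated HCC1937-OE-BRCA1 and 0.36, 0.36 and 0.39 at 24 h. In HCC1937-EV it was between −0.03 and 0.04 in all 6 libraries, and the conditions overlapped.

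The element bound by the complex with STAT2 and IRF9 was looked for in promoters of these genes, as GAAA, any 2 bases and GAAA again on either strand (TTTC, any 2 bases and TTTC on the other one), from 250 bases before to 50 after the start site. RefSeq promoters of GRCh38.p14 were at hand for 54 of the 67 genes, and 32 of them (59.3%) held it. It was in 3.65% of 27305 promoters and in 2.63% of the 9441 promoters of genes expressed in both lines. Stretches before the start sites of 4 genes with called positive differences are shown, 5′ to 3′ on the strand of the gene, with whole matches in capitals.
IFIT1, chr10:89392495-89392554, plus strand: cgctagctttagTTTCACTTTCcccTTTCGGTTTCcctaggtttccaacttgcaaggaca
IFIT3, chr10:89327850-89327909, plus strand: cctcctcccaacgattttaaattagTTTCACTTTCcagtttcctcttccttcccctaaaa
HERC5, chr4:88457020-88457079, plus strand: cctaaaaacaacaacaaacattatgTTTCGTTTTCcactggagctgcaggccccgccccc
OAS3, chr12:112938437-112938473, plus strand: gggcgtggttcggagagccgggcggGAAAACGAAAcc

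IFIT1 and IFIT3 shared the 10 letters of 1 match, and in OAS3 the match ended just before the start site. The element did not mark the genes that differed between the lines within the list. Of the 32 list members that held it, 17 were called positive with a median difference of 0.59, and of the 22 that did not, 17 were called with a median of 0.78. OAS1, STAT2, WARS1 and IFI16 had no match in this window. Among the genes with opposite signs, 4.52% of 1017 promoters held the element where the difference was positive and 1.48% of 1486 where it was negative. A match is a description of letters and not a binding site.

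Cytosolic ribosomal protein genes differed in the other direction. Of 78 genes expressed in both lines, the difference was called negative for 56 (71.8%, against 16.1% of the genes expressed in both lines) and positive for none, with a median of −0.79. In HCC1937-EV 40 rose, none fell and the median was 0.42. In HCC1937-OE-BRCA1 12 fell, none rose and the median was −0.38. Over the genes expressed in both lines, 11.9% rose in the first line and 4.82% fell in the second. Log2 fold changes had opposite signs in 75 of the 78 genes, against 66.3% of the 12332 genes expressed in both lines. The count of negative differences was 59 without replicate 1 of untreated HCC1937-OE-BRCA1 and 64 with the correction for GC content and length, and it ran from 43 to 61 without any one library.

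RPS3 (ENSG00000149273.15, chromosome 11, 75399486 to 75422280), a protein of the small subunit near the mRNA entry channel, was at 834, 1006 and 961 CPM and then 1932, 1851 and 1584 CPM in HCC1937-EV. Across HCC1937-OE-BRCA1 it was at 544, 1032 and 882 CPM and then 531, 547 and 455 CPM, so replicate 1 of the untreated libraries lay within the treated range. The difference was −1.62 ± 0.29 (adjusted p = 0.00129, edgeR). RPL13A, a large subunit protein, was at 1866, 1950 and 2005 CPM and then 3376, 3125 and 2677 CPM in HCC1937-EV, and at 1020, 1535 and 1194 CPM and then 867, 933 and 770 CPM in HCC1937-OE-BRCA1, without overlap in either line. Its difference was −1.20 ± 0.21 (adjusted p = 0.00114, edgeR), and that of RPL41 was −1.23 ± 0.21 (adjusted p = 0.00123, edgeR). Ribosomal protein genes have many pseudogene copies, so their counts are uncertain where reads could be split between copies.

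Ribosomal protein transcripts are known for a start made of pyrimidines, the terminal oligopyrimidine (TOP) run, through which their translation is controlled. A C at the start site followed by 4 bases that are each C or T was found in 42 of 63 promoters of the list (66.7%), against 5.55% of the genes expressed in both lines. The 42 genes had a median difference of −0.91 with 30 called negative, and the other 21 a median of −0.66 with 14 called. Nuclear respiratory chain genes held it in 9 of 64 promoters. The 15 bases before and after 3 start sites are shown, with the pyrimidine run in capitals.
RPS3, chr11:75399503-75399532, plus strand: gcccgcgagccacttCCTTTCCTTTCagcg
RPL13A, chr19:49487593-49487622, plus strand: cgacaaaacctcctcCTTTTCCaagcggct
RPL41, chr12:56116618-56116647, plus strand: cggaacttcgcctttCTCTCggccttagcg

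Nuclear genes of the respiratory chain and ATP synthase moved in the direction of the ribosomal protein genes. Of 78 expressed in both lines, 48 differences were called negative (61.5%, against 16.1%) and none positive, with a median of −0.72. In HCC1937-EV 43 rose, none fell and the median was 0.47, and in HCC1937-OE-BRCA1 4 fell, none rose and the median was −0.24. The 4 of 78 were near the 4.82% of the genes expressed in both lines that fell in HCC1937-OE-BRCA1. In HCC1937-EV 11.9% of those genes rose. Negative calls were spread over the complexes, with 23 of 35 genes of complex I, 6 of 9 of complex III, 8 of 12 of complex IV and 11 of 18 of ATP synthase, and none of 4 genes of complex II. The count was 55 without replicate 1 of untreated HCC1937-OE-BRCA1, 29 without replicate 2 of that condition and 58 with the correction for GC content and length.

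NDUFA1 (ENSG00000125356.7), an accessory subunit of complex I encoded on the X chromosome, was at 20.1, 37.3 and 31.5 CPM and then 98.3, 94.9 and 79.8 CPM in HCC1937-EV. HCC1937-OE-BRCA1 had 16.1, 31.4 and 26.1 CPM and then 16.6, 16.8 and 13.2 CPM, where the conditions overlapped and the change did not pass the test. The difference was −2.27 ± 0.41 (adjusted p = 0.00144, edgeR). NDUFV1, which binds NADH in complex I, had a difference of −1.16, and ATP5F1E, the epsilon subunit of ATP synthase, one of −1.04.

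The 13 protein genes of mitochondrial DNA, which encode other subunits of complexes I, III, IV and V, went the opposite way. Their difference was called positive for 7 (53.8%, against 11.1% of the genes expressed in both lines) and negative for none, with a median of 0.55. The count was 4 without replicate 1 of untreated HCC1937-EV and also 4 without replicate 3 of treated HCC1937-OE-BRCA1. In HCC1937-EV 5 fell and the median was −0.38, and in HCC1937-OE-BRCA1 none was called and the median was 0.08. Over the genes expressed in both lines, 7.03% fell in HCC1937-EV. MT-CO1, the catalytic subunit of complex IV, was at 25768, 21031 and 23790 CPM and then 16711, 16790 and 16963 CPM in HCC1937-EV. It was at 11756, 10994 and 10660 CPM and then 12061, 12617 and 13347 CPM in HCC1937-OE-BRCA1, and the difference was 0.67 ± 0.16 (adjusted p = 0.00722, edgeR). MT-ND4L had a difference of 1.46 and MT-ND2 one of 0.75. MT-ND4L overlaps MT-ND4, so its reads are uncertain.

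Mitochondrial ribosomal protein genes had 28 of 75 differences called negative (37.3%, against 16.1%) and none positive, with a median of −0.44. The count was 15 without replicate 2 of untreated and 17 without replicate 3 of treated HCC1937-OE-BRCA1. It was 18 without replicate 3 of untreated or replicate 2 of treated HCC1937-EV, and up to 35 in the other fits that left out 1 library. MRPL12, which binds the mitochondrial RNA polymerase besides its place in the ribosome, had the largest difference of the named genes, −3.10 ± 0.55 (adjusted p = 0.00134, edgeR). It was at 13.6, 21.2 and 15.2 CPM and then 72.7, 63.5 and 49.7 CPM in HCC1937-EV, and at 12.6, 41.5 and 32.0 CPM and then 14.6, 11.8 and 11.1 CPM in HCC1937-OE-BRCA1. Replicate 1 at 0 h in the second line again lay within the treated range. MRPL51 had a difference of −1.40 and MRPL52 one of −1.28.

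Genes of the cell cycle split by phase. Of 61 DNA replication genes, 19 differences were called positive (31.1%) and 3 negative (4.92%), with a median of 0.29. The shares over the genes expressed in both lines were 11.1% and 16.1%. In HCC1937-EV 10 fell and 6 rose, and in HCC1937-OE-BRCA1 14 rose and 1 fell. Over the genes expressed in both lines, 7.03% fell and 11.9% rose in HCC1937-EV, and 5.14% rose and 4.82% fell in HCC1937-OE-BRCA1. ORC1, the largest subunit of the origin recognition complex, was at 78.2, 73.6 and 74.9 CPM and then 61.5, 60.7 and 63.1 CPM in HCC1937-EV, and at 52.6, 49.0 and 44.1 CPM and then 66.0, 73.5 and 75.5 CPM in HCC1937-OE-BRCA1. Its difference was 0.85 ± 0.12 (adjusted p = 0.000257, edgeR), and that of MCM4, a subunit of the replicative helicase, was 0.67 ± 0.11 (adjusted p = 0.000665, edgeR).

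Of 68 genes of mitosis, 21 differences were called negative (30.9%, against 16.1%) and 2 positive (2.94%, against 11.1%), with a median of −0.18. Here the fall lay in HCC1937-OE-BRCA1, where 18 fell and none rose, while 7 rose and 5 fell in HCC1937-EV. The counts in HCC1937-EV were near the shares of 11.9% and 7.03% over the genes expressed in both lines. In HCC1937-OE-BRCA1 4.82% of those genes fell. CDC20, an activator of the anaphase-promoting complex, was at 152, 166 and 162 CPM and then 191, 190 and 174 CPM in HCC1937-EV, a change that did not pass the test. The other line had 367, 475 and 460 CPM and then 221, 215 and 191 CPM, and the difference was −1.26 ± 0.16 (adjusted p = 0.000111, edgeR). PSRC1, a protein of the spindle, had a difference of −1.27, and BIRC5, survivin of the chromosomal passenger complex, one of −1.06. Without replicate 1 of untreated HCC1937-OE-BRCA1, 21 differences were negative and 8 positive with a median of −0.06, and 35 were negative with the correction for GC content and length.

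Homologous recombination and Fanconi anaemia genes, the pathway of BRCA1, had 13 of 51 differences called positive (25.5%) and 1 negative (1.96%). The shares over the genes expressed in both lines were 11.1% and 16.1%. The median of the list was 0.33. In HCC1937-EV 4 rose and 4 fell, and in HCC1937-OE-BRCA1 4 rose and none fell. These counts were near or under the shares over the genes expressed in both lines. Those shares were 11.9% and 7.03% in HCC1937-EV and 5.14% and 4.82% in HCC1937-OE-BRCA1. BRIP1, a helicase that binds BRCA1, was at 47.4, 41.6 and 38.4 CPM and then 32.3, 32.7 and 33.4 CPM in HCC1937-EV, and at 33.1, 20.3 and 24.4 CPM and then 43.8, 46.1 and 48.3 CPM in HCC1937-OE-BRCA1. Its difference was 1.20 ± 0.26 (adjusted p = 0.00432, edgeR), and that of FANCI 0.74. XRCC3, a protein of homologous recombination, was the 1 negative call, with −0.84. Positive calls numbered 6, with a median of 0.08, with the correction for GC content and length. They ran from 5, without replicate 2 of untreated or replicate 3 of treated HCC1937-OE-BRCA1, to 22 without replicate 1 of untreated HCC1937-OE-BRCA1.

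Smaller lists were read against the shares over the genes expressed in both lines, 11.1% positive and 16.1% negative, and many of their counts moved by over 1.5 times without 1 library. Stress and unfolded protein response genes had 13 of 53 differences called positive (24.5%) and 5 negative (9.43%), with a median of 0.34. Positive calls were 7 without replicate 2 of treated HCC1937-EV, 18 without replicate 1 of untreated HCC1937-OE-BRCA1 and 21 with the correction for GC content and length. Beside SLC7A11 and WARS1, VLDLR, a lipoprotein receptor induced by that response, had a difference of 1.03 ± 0.16 (adjusted p = 0.000457, edgeR). Sterol synthesis genes had 8 of 32 called negative (25%) and none positive, with a median of −0.27. Negative calls were 5 without replicate 1 of untreated HCC1937-EV or without replicate 2 of untreated or 3 of treated HCC1937-OE-BRCA1. They were 14 without replicate 1 of untreated HCC1937-OE-BRCA1 and 13 with the correction. PMVK and MVD, which encode enzymes of the mevalonate pathway, had differences of −1.43 and −1.31, and SREBF2, the transcription factor of the pathway, one of −0.53.

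Targets of p53 had 9 of 28 differences called negative (32.1%, against 16.1%) and 2 positive. Negative calls were 5 without replicate 1 of untreated HCC1937-EV or replicate 2 of treated HCC1937-OE-BRCA1, and 6 to 10 in the other fits that left out 1 library. With the correction for GC content and length, 9 were negative and 4 positive. In HCC1937-EV 10 rose and none fell, and in HCC1937-OE-BRCA1 3 rose and none fell. Over the genes expressed in both lines, 11.9% rose in the first line and 5.14% in the second. PHLDA3, an inhibitor of AKT, was at 24.9, 33.4 and 28.4 CPM and then 65.4, 68.3 and 55.8 CPM in HCC1937-EV, and at 69.5, 135 and 119 CPM and then 82.2, 77.1 and 68.2 CPM in HCC1937-OE-BRCA1, where the conditions overlapped. Its difference was −1.63 ± 0.29 (adjusted p = 0.00139, edgeR), and those of FDXR and BTG2 were −1.28 and −0.73.

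NF-kB targets had 3 of 21 called positive (14.3%) and 2 negative (9.52%), near the 11.1% and 16.1% over the genes expressed in both lines. The counts were 7 and 1 with the correction for GC content and length, and 5 and 4 without replicate 1 of untreated HCC1937-OE-BRCA1. NFKB2, a subunit of the non-canonical pathway, had a difference of −1.16 ± 0.18 (adjusted p = 0.00036, edgeR), while BIRC3 and IRAK2 had 1.30 each. AP-1 and immediate early genes had 8 of 28 called in each direction (28.6%), with −1.03 for CCN1 and 0.92 for ATF3. This balance depended on the fit, with 11 positive and 4 negative under the correction. Without 1 library, 5 to 8 were positive and 4 to 8 negative, the fewest negative without replicate 1 of untreated HCC1937-EV. Positive calls were 5 without replicate 2 of treated HCC1937-EV or replicate 2 of untreated or treated HCC1937-OE-BRCA1. Glycolysis and hypoxia genes had 6 of 32 called positive (18.8%) and 2 negative (6.25%), 4 and 4 with the correction, and 7 and 7 without replicate 1 of untreated HCC1937-OE-BRCA1. The other fits that left out 1 library gave 4 or 5 positive and 1 to 4 negative calls. Single members had differences of 1.19 for the hypoxia-induced NDRG1, 1.22 for PFKFB4 and −0.88 for PFKL.

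Chromatin regulators, a list of mostly long transcripts, had 30 of 100 differences called positive (against 11.1%) and 3 negative (against 16.1%), with a median of 0.25. With the correction for GC content and length, 18 were positive and 11 negative, and 13 to 39 were positive without 1 library, the fewest without replicate 2 and the most without replicate 1 of untreated HCC1937-OE-BRCA1. Positive calls were also over 1.5 times fewer without replicate 1 of untreated HCC1937-EV (16), replicate 1 (18) or 2 (17) of treated HCC1937-EV, or replicate 3 of treated HCC1937-OE-BRCA1 (15). HDAC1, a histone deacetylase, had a difference of −0.67, the cohesin subunit STAG1 one of 0.80 and the corepressor SIN3A one of 0.63. STAG1 was not called with the correction, with 0.38 (adjusted p = 0.0718).

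Keratin and epidermal genes had 4 of 20 called positive (20%, against 11.1%) and 8 negative (40%, against 16.1%). With the correction for GC content and length, 2 were positive and 1 negative, and the median of the list moved from −0.43 to 0.01. Without 1 library, 1 to 4 were positive and 5 to 10 negative, and the 5 came without replicate 1 of untreated HCC1937-EV or without replicate 2 of untreated or 3 of treated HCC1937-OE-BRCA1. KRT7 and KRT18, keratins of simple epithelia, had differences of −0.79 and −0.70, and SFN, a 14-3-3 protein of epithelia, one of −0.95. The summed level of 7 epithelial markers was 5592 to 7010 CPM at 0 h and 4432 to 4839 CPM at 24 h for HCC1937-OE-BRCA1, beside 2704 to 2849 CPM and 2619 to 3145 CPM for HCC1937-EV. In HCC1937-EV 3 of the 7 reached 1 CPM in every library. There KRT8 (mean 1886 CPM at 0 h) and KRT18 (875 CPM) made up nearly all of the sum. KRT18 counts in both this sum and the list. The part of these marker levels in the list's values was not tested. Fewer cells of a type and less RNA per cell cannot be told apart in such bulk libraries.

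Spliceosome genes had 6 of 80 differences called positive (7.5%) and 13 negative (16.2%), and a median of 0.04, against 11.1%, 16.1% and 0.03 over the genes expressed in both lines. The counts were 3 and 16 with the correction for GC content and length. They were 2 and 6 without replicate 2, and 12 and 19 without replicate 1, of untreated HCC1937-OE-BRCA1, and 3 to 5 and 8 to 13 in the other fits that left out 1 library. The members with the smallest adjusted p were LSM4 (−1.06), SRSF9 (−1.40) and SNRNP25 (−1.16). Proteasome genes had 3 of 31 called in each direction (9.68%), against 11.1% and 16.1%, and 1 and 3 with the correction. Without 1 library 1 to 4 were positive and 1 to 7 negative, the most without replicate 1 of untreated HCC1937-OE-BRCA1. Single members had differences of 0.68 for PSMD1, −1.13 for PSMA7 and 0.38 for PSMD11. The call of PSMD11 was lost in 5 of 12 fits that left out 1 library.

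**Figure D3:**
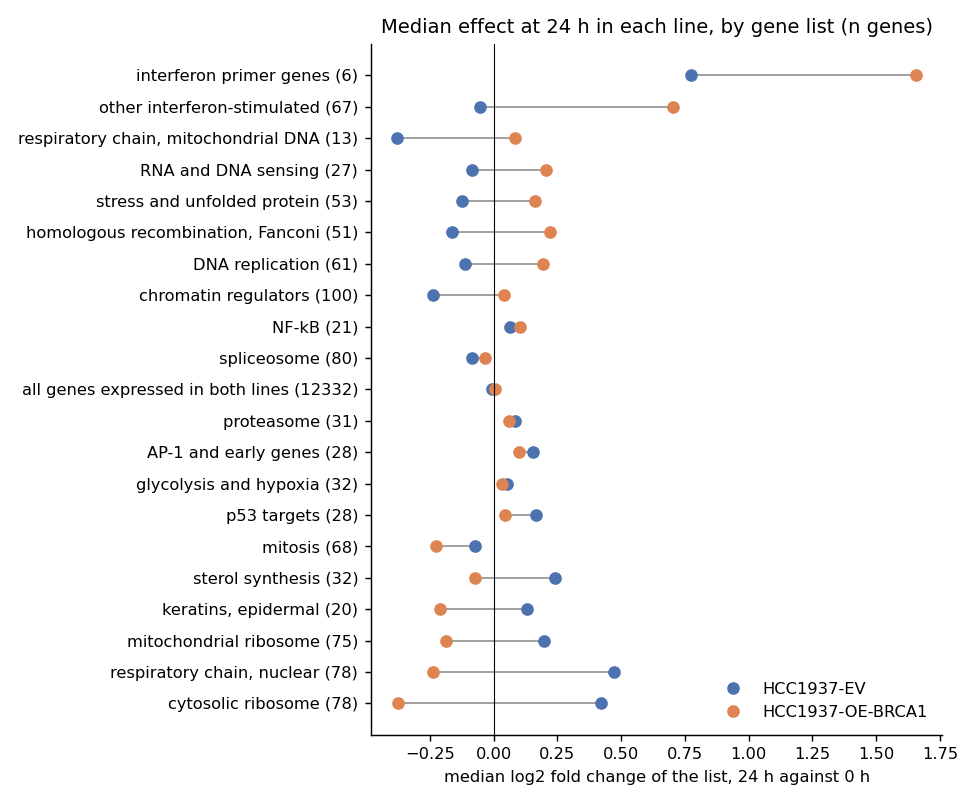
Median log2 fold change from 0 h to 24 h of each gene list in HCC1937-EV (blue) and HCC1937-OE-BRCA1 (orange), with the number of genes expressed in both lines in brackets and lists ordered by the median difference. The medians of cytosolic ribosomal protein genes were 0.42 and −0.38 and those of the other interferon-stimulated genes −0.05 and 0.70, against −0.01 and 0.00 over 12332 genes.

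Genes of sensing and interferon induction had 12 of 27 differences called positive (44.4%) and 4 negative (14.8%), with a median of 0.40. Over the genes expressed in both lines these shares were 11.1% and 16.1%, so the negative share was near the latter. With the correction for GC content and length the counts were 12 and 2. Positive calls were 8 without replicate 2 of untreated or replicate 3 of treated HCC1937-OE-BRCA1, and negative calls ran from 0 to 5 without 1 library. ZNFX1, a helicase-like sensor of RNA, was at 81.2, 88.5 and 84.3 CPM and then 64.8, 74.3 and 78.5 CPM in HCC1937-EV, and at 185, 159 and 186 CPM and then 332, 328 and 377 CPM in HCC1937-OE-BRCA1. Its difference was 1.19 ± 0.13 (adjusted p = 2.6e-05, edgeR).

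Another 9 genes that the study names were expressed in both lines. Their differences were called positive for 4 (44.4%), negative for 1 (11.1%) and not called for 4. The shares over the genes expressed in both lines were 11.1% positive and 16.1% negative. IRF3, the factor downstream of the sensors, was at 72.2, 77.1 and 78.2 CPM and then 110, 112 and 99.9 CPM in HCC1937-EV. Libraries of the other line had 116, 183 and 188 CPM and then 131, 136 and 126 CPM, which overlapped. The difference was −0.81 ± 0.23 (adjusted p = 0.0196, edgeR), and the call was lost in 4 of 12 fits that left out 1 library. TBK1, the kinase that activates IRF3, had a difference of 0.71 ± 0.23 (adjusted p = 0.0353, edgeR), lost in 9 of 12 such fits.

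SF3B1, a component of the spliceosome, had a difference of 0.61 ± 0.14 (adjusted p = 0.00676, edgeR), and 0.12 (adjusted p = 0.379) with the correction for GC content and length. The differences of NCOR1 (0.57, adjusted p = 0.0758) and PARP1, the target of olaparib (0.26, adjusted p = 0.0821), did not pass edgeR's test. Those of POLR2A (−0.13 ± 0.29) and MAVS, the adaptor of the RNA sensors (0.005 ± 0.14), did not either. The spread of POLR2A was wide in HCC1937-EV at 24 h, with replicate 3 far above the others.

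Genes of opposite sign differed from the others in sequence and structure. The median GC content of transcripts was 49.2% over the genes expressed in both lines. It was 43.2% for the 1299 genes with a positive difference and 59.0% for the 1899 with a negative one, and the interquartile ranges of the 2 groups, 40.2% to 47.0% and 53.5% to 62.6%, did not overlap. Median exonic lengths were 4924, 7240 and 3531 bases in the same order, and median numbers of exons in the longest transcript were 7, 12 and 6. Median spans on the genome were 29294 bases over the genes expressed in both lines, 64384 for the positive and 12223 for the negative group.

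Across the 10 bins of GC content, from a median of 38.4% to one of 64.0%, the median log2 fold change rose from −0.29 to 0.42 in HCC1937-EV and went from 0.14 to −0.25 in HCC1937-OE-BRCA1. The median difference went from 0.43 to −0.65. In the lowest bin 276 differences were called positive and 11 negative, and in the highest 10 and 594. Without replicate 1 of untreated HCC1937-OE-BRCA1 the median difference went from 0.60 to −0.79, so the trend was no smaller without that library. Across bins of exonic length the median difference went from −0.39 in the shortest to 0.34 in the longest.

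The dependence of a library's deviations on GC content and length was then fitted and entered as an offset, which by construction removes what follows these features, whether it arose in the cells or in the preparation of libraries. The median difference lay between −0.08 and 0.01 over the bins of GC content with it. It left 1252 positive and 2077 negative calls over the genes tested, of which 832 and 1371 were also called without it. Ribosomal protein and nuclear respiratory chain genes had median GC contents of 49.9% and 48.2%, close to the 49.2% of the genes expressed in both lines. Their median exonic lengths, 2992 and 2469 bases, were shorter. The median deviation of the longest minus the shortest length bin was also taken for each library. It was 0.29, 0.20 and 0.22 at 0 h and −0.44, −0.28 and −0.04 at 24 h in HCC1937-EV. For HCC1937-OE-BRCA1 it was 0.18, −0.49 and −0.12 and then 0.09, 0.03 and 0.29. Within a line, libraries with a lower value mostly had higher medians of both lists. The part of length in these lists was not tested beyond the offset. GC content was pooled over all annotated transcripts of a gene and length joins all their exons, so neither is that of the expressed transcript alone. How far the offset covers the true features of these genes was not tested.

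**Figure D4:**
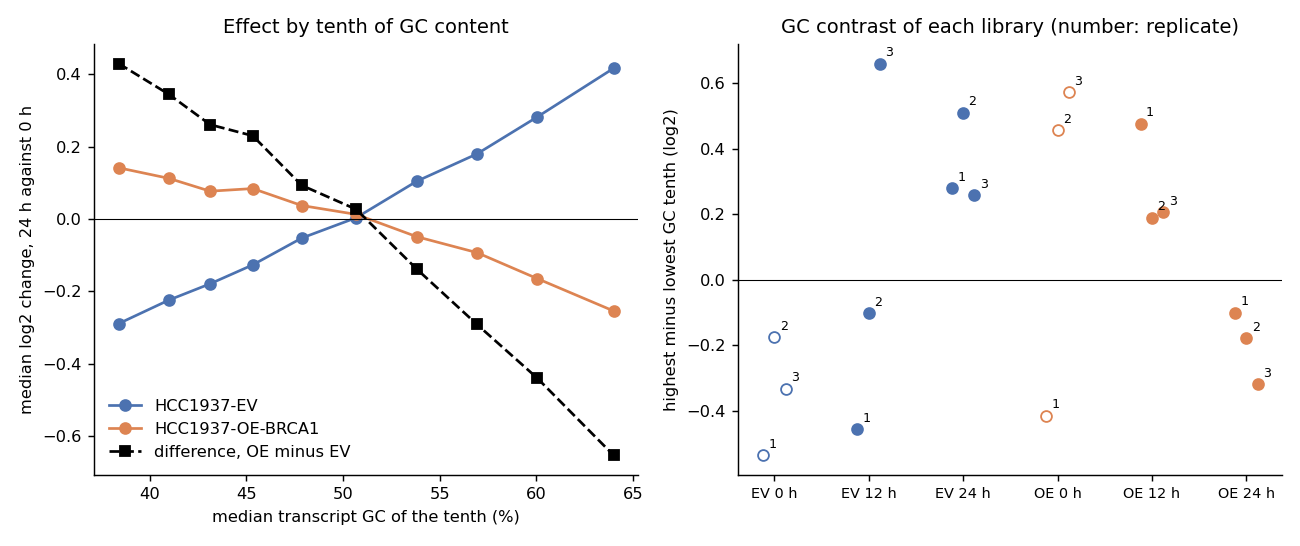
Left, the median log2 fold change at 24 h in each line and the median difference (OE minus EV) by bin of transcript GC content, which crosses 0 near the middle of the range. Right, the median log2 deviation of the highest minus the lowest GC bin in each of the 18 libraries, numbered by replicate, where replicate 1 of untreated HCC1937-OE-BRCA1 lies at −0.41 and the other 2 at 0.46 and 0.57.

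At 12 h the same lists stood as follows, measured against the same untreated libraries, so that the values at both times are not independent. The other interferon-stimulated genes had medians of 0.01 in HCC1937-EV and 0.67 in HCC1937-OE-BRCA1 at 12 h, beside −0.05 and 0.70 at 24 h. Cytosolic ribosomal protein genes had 0.30 and −0.11, beside 0.42 and −0.38, and nuclear respiratory chain genes 0.34 and −0.08, beside 0.47 and −0.24. Mitosis genes had −0.05 and −0.36, beside −0.07 and −0.23. DNA replication genes were at −0.00 and 0.01, beside −0.11 and 0.19. Replicate 3 of HCC1937-EV at 12 h stood apart from the other libraries of its condition. As deviations from the line mean at 0 h and 24 h, the ribosomal protein medians of replicates 1 to 3 were −0.003, −0.08 and 0.33. Those of the nuclear respiratory chain genes were −0.02, −0.03 and 0.28.

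Among single genes, the log2 differences at 12 h and 24 h were 1.14 and 1.94 for IFI16, 0.43 and 1.96 for SLC7A11, 0.79 and 1.59 for CCNE2 and −1.20 and −2.28 for TRAPPC6A. They were 1.34 and 1.35 for OAS1 and 0.88 and −0.01 for OASL, which at 12 h had log2 fold changes of 0.55 in HCC1937-EV and 1.42 in HCC1937-OE-BRCA1. Whether the differences changed from 12 h to 24 h was not tested.

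Libraries of a condition lay closer together for the interferon-stimulated genes than for the ribosomal protein genes. The median of the ribosomal protein genes, as the deviation from the mean of the line, was −0.27, −0.21 and −0.16 at 0 h and 0.35, 0.25 and 0.04 at 24 h in HCC1937-EV. For HCC1937-OE-BRCA1 it was −0.08, 0.47 and 0.13 at 0 h and −0.13, −0.10 and −0.29 at 24 h. The gap between the lowest untreated and the highest treated library there was narrow. Nuclear respiratory chain genes overlapped in that line, with −0.15, 0.39 and 0.09 at 0 h and −0.07, −0.06 and −0.21 at 24 h.

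**Figure D5:**
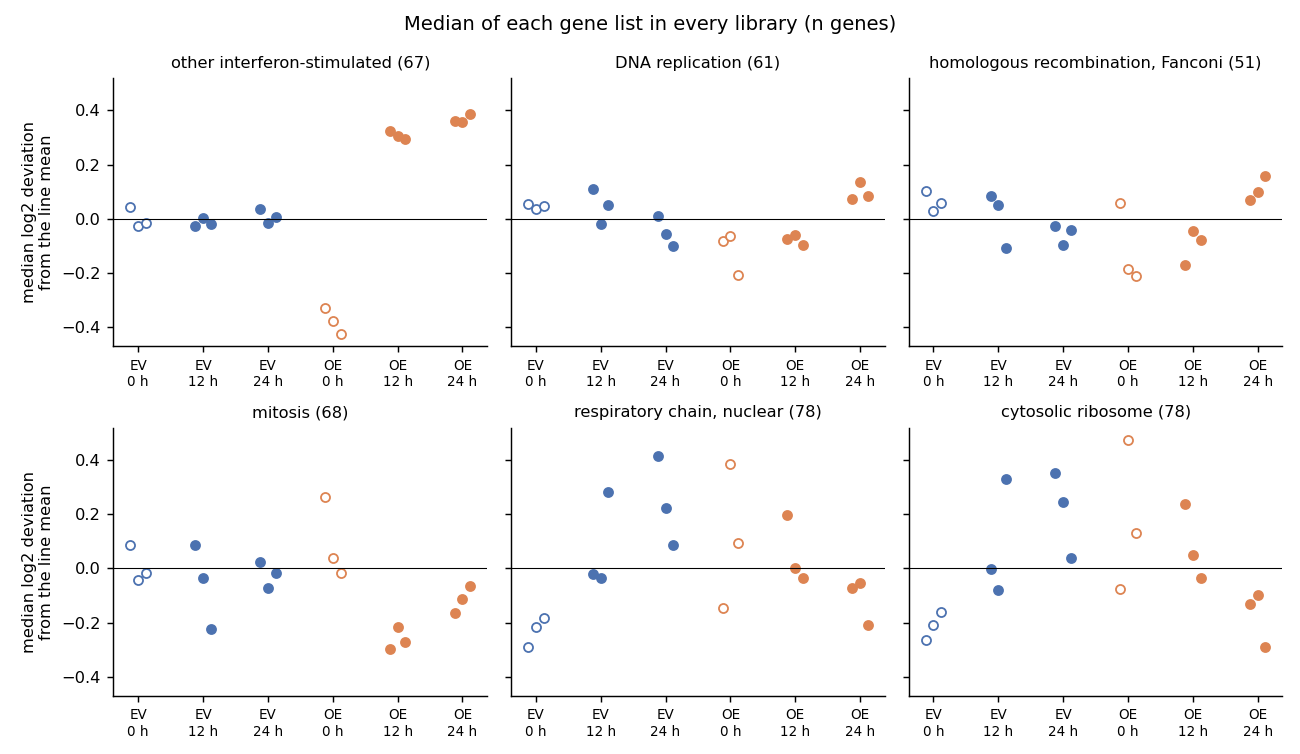
Median log2 deviation of 6 gene lists from the mean of the 0 h and 24 h libraries of the same line, in each of 18 libraries (open points 0 h, filled points 12 h and 24 h). For the other interferon-stimulated genes the untreated HCC1937-OE-BRCA1 libraries lie between −0.42 and −0.33 and the 24 h ones between 0.36 and 0.39, while for cytosolic ribosomal protein genes the untreated ones spread from −0.08 to 0.47.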

How the data were processed

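RNA was extracted by the authors with TRIzol and libraries were made with the NEBNext Ultra II kit. The authors deposited whole-number read counts per gene, not normalized, in 1 joint table and 18 tables of single libraries, which were checked to be identical. The submitters' processing notes name HISAT2, featureCounts, DESeq2 and GRCh38 (hg38). Their versions, the annotation and the strand setting are not given in the sources used here. Samples were grouped by line and time in their titles.

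Counts were fitted with edgeR 4.0.16 in R 4.3.3 (TMM, filterByExpr, 1 mean per condition over 18 libraries, quasi-likelihood test, Benjamini-Hochberg adjustment over 18335 genes, no minimum fold). CPM use TMM-scaled library sizes, and deviations are of log2 CPM. Symbols matched 34966 identifiers. Positions, GC content (pooled over all transcripts of a gene) and lengths (all exons joined) were taken from GENCODE 29, which held 33888 identifiers. Promoters were taken from RefSeq (GRCh38.p14). The biological coefficient of variation was 12.9%. The fit was also run on simulated counts with known changes, drawn without trends in GC content or length. That run therefore cannot check the rate of false calls where such trends are present. Replicates at 0 h and 24 h differed by more than sampling noise (chi-square over its degrees of freedom, 3.42 to 31.2). With the 12 h libraries included this range was 3.07 to 37.7, the highest between replicates 1 and 3 of HCC1937-EV at 12 h.

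Members and lists were chosen with earlier results of these data known. Named were, by rule, the 8 largest and 8 smallest differences among genes called in opposite directions without overlap, 3 and 3 among those called in the same direction, up to 3 genes per list by adjusted p, and the primer and study-named genes. No set test was run. Alternatives were other scaling, filters, tools (DESeq2 1.42.0), fold and CPM limits, a replicate block, a GC and length offset and left-out libraries. Some items are not reported here.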

Additional observations from a re-analysis of the deposited data

Results flagged for a closer look

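The response at 24 h differed between the lines, by the test of the difference itself, for 1496 genes in the positive and 2058 in the negative direction of 18335 tested, and for 79 of the 84 genes named by rule. The difference was tested with edgeR's quasi-likelihood test in each case. Many of the 84 genes were chosen by this same test, so their count is a description.

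Of genes that rose in both lines, the differences of IFIT3 (1.39), IFIT2 (1.31) and IFIT1 (0.93) and of PARP10 (−0.82), ALPP (−0.49) and CDKN1A (−0.47) passed this test. The first 3 also did so with the correction for GC content and length and in each fit that left out 1 library, and the other 3 did not pass with that correction. These genes were chosen by the same test, so their calls are a description. Conditions of 3 libraries are too few for a test of single outlying libraries.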

How the results depend on the processing

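Over 84 named genes, no call or direction changed under the replicate block. With the GC and length offset, alone or with the block, ALPP turned from −0.49 to 0.068 and 0.071, and 8 and 7 further calls were lost. These fits remove what follows GC content and length by construction. Values near 0 without a call also changed sign: OASL to 0.15 in both offset fits, and MAVS to −0.14 in both offset fits, −0.055 without a filter on low counts and −0.0011 with DESeq2 and with RLE scaling. With 1 library left out, OASL ran from −0.10 to 0.078, MAVS from −0.081 to 0.085 and POLR2A from −0.35 to 0.23.

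Counts of genes called in opposite directions in each line, 61 and 153, were the least stable. They were 85 and 288 with the 12 libraries alone, 113 and 319 with DESeq2, 89 and 333 with the offset, 94 and 296 with the offset and block, 81 and 634 with no filter, and 106 and 465 without replicate 1 of the untreated libraries of both lines together. Leaving out 1 library gave 13 to 350 and 28 to 817. The same fits gave 782 to 2630 positive and 1280 to 2872 negative calls over the genes tested, 710 to 2424 and 1244 to 2742 among genes expressed in both lines, and 654 to 2329 and 1175 to 2648 with opposite signs. The highest were without replicate 1 of untreated HCC1937-OE-BRCA1. The lowest over the genes tested were without replicate 2 of that condition, and positive calls were also over 1.5 times fewer without replicate 1 of untreated HCC1937-EV (846), replicate 1 (986) or 2 (877) of treated HCC1937-EV and replicate 3 of treated HCC1937-OE-BRCA1 (801). The cause was not tested.

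With a difference over 1 on the log2 scale, 405 and 742 calls were left over the genes tested. Among genes expressed in both lines 280 and 664 were left, 263 and 655 of them with opposite signs. Called in opposite directions in each line were 28 positive and 119 negative ones. A limit on size takes genes away. TMM and RLE scaling gave median differences of 0.03 and 0.02.

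Replicate numbers showed no clear pairing of the libraries: 5 of 18 same-number pairs had a correlation of deviations over 0.1 (−0.21 to 0.32), and 6 of 12 libraries correlated best with their own number. These deviations were taken from the mean of each condition, which ties its libraries to each other. The check therefore cannot exclude a pairing or a shared batch. With the number as a block, 1490 and 2010 genes were called. At 15708622 or more counts per library, genes near 1 CPM rest on few counts.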

Other observations

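Families of genes were also gathered by symbol pattern after the values had been seen, 20 in all. The 4 given here were chosen after their values were seen and carry no test. Over the genes expressed in both lines, 11.1% of differences were called positive and 16.1% negative. Host genes of small nucleolar RNAs (SNHG symbols) had 11 of 19 called negative (57.9%) and 1 positive, with a median of −0.64. Negative calls were 6 without replicate 2 of untreated HCC1937-OE-BRCA1, 7 without any of 6 other libraries, and 12 with the correction for GC content and length. Their median log2 fold changes were 0.24 in HCC1937-EV and −0.41 in HCC1937-OE-BRCA1. Pseudogenes of ribosomal proteins had 30 of 62 called negative (48.4%) and 1 positive, with a median of −0.94 and 23 to 33 negative without 1 library. Their reads cannot be told apart with certainty from those of the parent genes.

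Genes of mitochondrial assembly factors and protein import (NDUFAF, COA, TIMM and TOMM symbols and those of COX assembly) had 18 of 46 called negative (39.1%) and 1 positive, with a median of −0.42. Negative calls were 11 without replicate 3 of treated HCC1937-OE-BRCA1, 12 without replicate 1 of untreated or 2 of treated HCC1937-EV or replicate 2 of untreated HCC1937-OE-BRCA1, up to 22 in the other fits that left out 1 library, and 20 with the correction. Ubiquitin-specific proteases (USP symbols), which remove ubiquitin from proteins, had 12 of 45 called positive (26.7%) and none negative, with a median of 0.41. Positive calls were 5 to 8 without any of 7 libraries, the fewest without replicate 2 of untreated or 3 of treated HCC1937-OE-BRCA1, and 25 without replicate 1 of untreated HCC1937-OE-BRCA1. With the correction for GC content and length, 4 were positive and 1 negative, and the median was 0.06.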
